A study of Mus musculus with 6 samples.

Results

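The nuclear-encoded subunits of the mitochondrial respiratory chain were examined in O4-positive cells from the brains of WT and Npc1-/- mice. Genes were taken by symbol: Ndufa, Ndufb, Ndufc, Ndufs and Ndufv genes for complex I, Sdha to Sdhd for complex II, Uqcr genes for complex III, Cox4 to Cox8 genes for complex IV, and Atp5 genes for complex V, with names containing "-ps" left out. This gave 89 of the 55492 genes listed. Of these, 40 carry complex I symbols, 4 complex II, 8 complex III, 19 complex IV and 18 complex V. The annotation lists 85 as protein-coding and 4 (Ndufa11b, Ndufb4c, Ndufs6b and Cox6c2) as processed pseudogenes, which are copies of a spliced messenger RNA inserted elsewhere in the genome. A total of 84 members had a mean expression high enough to be tested.

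The respiratory chain sits in the inner mitochondrial membrane. Complexes I and II take electrons from NADH and succinate, complexes III and IV pass them on to oxygen, and complex V (ATP synthase) uses the proton gradient built on the way to make ATP. Most subunits are encoded in the nucleus and imported, while a small set at the core of every complex except complex II is encoded by the mitochondrial genome. Oligodendrocytes are known to need ATP and carbon skeletons in large amounts while they build myelin.

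Both genotypes were littermates at P16, F1 hybrids from heterozygous parents on BALB/cJ and C57BL6/J backgrounds. The Npc1-/- mice carry the Npc1nih allele in all tissues, so the loss of NPC1, a lysosomal cholesterol transporter, is not limited to the oligodendrocyte lineage. Cells displaying O4, a surface lipid of late progenitors and immature oligodendrocytes, were isolated from whole brain with magnetic beads, and 1 library of poly(A) RNA was made per mouse (3 WT, 3 Npc1-/-, no treatment). The comparison asks how gene expression in these cells differs between genotypes.

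Expression is given as scaled TPM, which is TPM (an abundance per transcript length that sums to an equal total in each library) divided by a size factor per sample. Errors after ± are SDs over 3 mice. Fold changes are differences of log2(scaled TPM + 0.5), Npc1-/- minus WT, with standard errors and adjusted p-values from limma with Benjamini-Hochberg adjustment over 15245 genes. A gene was called when the adjusted p was below 0.05 and the log2 fold change at least 0.1 in size. Npc1 itself was at 41.1, 45.5 and 43.9 scaled TPM in the WT mice and at 3.72, 5.17 and 4.35 in the Npc1-/- mice. Read from the steps between low values, the libraries held between 40500000 and 50000000 fragments. Mbp alone took between 18.8% and 26.1% of TPM per sample. The oligodendrocyte markers summed to between 175025 and 246430 scaled TPM in WT and between 221135 and 435017 in Npc1-/- samples, so oligodendrocyte RNA was present in all 6. The 4 immature oligodendrocyte markers summed to between 1759 and 2916 and between 2576 and 5506. Yet 3 of them had a log2 fold change below 0 (median -0.26), 2 without overlap. The 4 progenitor markers summed to between 99.8 and 112 and between 79.6 and 140, and all 4 overlapped. Npc1-/- replicate 3 had the highest Mbp share and the smallest size factor (0.727, against 0.855 to 1.30 elsewhere). Markers of other cells also moved with genotype. The 10 neuron markers summed to between 275 and 297 in WT and between 695 and 857 in Npc1-/- samples, but this sum was carried by Pcp2, Pvalb, Nefl and Nefm, which were called higher, while the other 6 overlapped and the median log2 fold change of the list was 0.32. The 6 microglia markers summed to between 138 and 222 and between 61.2 and 113, the 5 endothelial markers to between 438 and 644 and between 312 and 372, and the 6 astrocyte markers to between 652 and 708 and between 439 and 847. Of the astrocyte markers 4 were lower and 1, Gfap, higher without overlap, with a median log2 fold change of -0.58. In bulk RNA, a different number of cells of a type and a different amount of RNA per cell cannot be told apart, and the part of these cells in the values below was not tested except where a value is given.

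Measured against the typical gene, most members were slightly higher in Npc1-/- cells, and all but 1 missed the threshold of the test. With size factors, 80 of 84 members tested (95.2%) had a log2 fold change above 0, against 51.0% of all genes tested, while in TPM without size factors 35 of 84 did. The median over the 82 protein-coding members tested was 0.33, with a range from -0.60 for Ndufa4l2 to 0.99 for Cox7a1, while the median over all genes was 0.01. In 56 members (66.7%) every Npc1-/- mouse was above every WT mouse, a pattern found in 13.3% of all genes. In 1 member, Ndufa4l2, every Npc1-/- mouse was below every WT mouse, a pattern found in 14.2% of all genes, and in the remaining 27 the groups overlapped. These counts include the pseudogene Cox6c2, which passed the filter on low values only through the Npc1-/- mice. With the processed pseudogenes left out, 78 of 82 members were above 0, and 55 were higher and 1 lower without overlap. The members also varied together between mice of the same genotype, as described below, so they are not independent of each other.

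The test called 1 member, where 0.813% of all genes were called; it was higher, as were 0.400% of all genes, and 0 members were lower, against 0.413% of all genes. The called member was the pseudogene Cox6c2, and 0 of the 82 protein-coding members tested were called. At an unadjusted p below 0.05, 53 members were higher (63.1%, against 10.6% of all genes) and 1 was lower (11.6% of all genes). At an adjusted p below 0.1, 17 were higher (20.2%, against 3.82% of all genes) and 1, Ndufa4l2, was lower, where 782 of 15245 genes were. With the processed pseudogenes left out, the members higher at these thresholds numbered 52 and 16. In a fit with a block for replicate number, 50 members were called higher and 1 lower, where 1143 and 868 of 15245 genes were. The calls therefore depend on whether the numbers pair the samples, which the labels do not say.

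**Figure D1:**
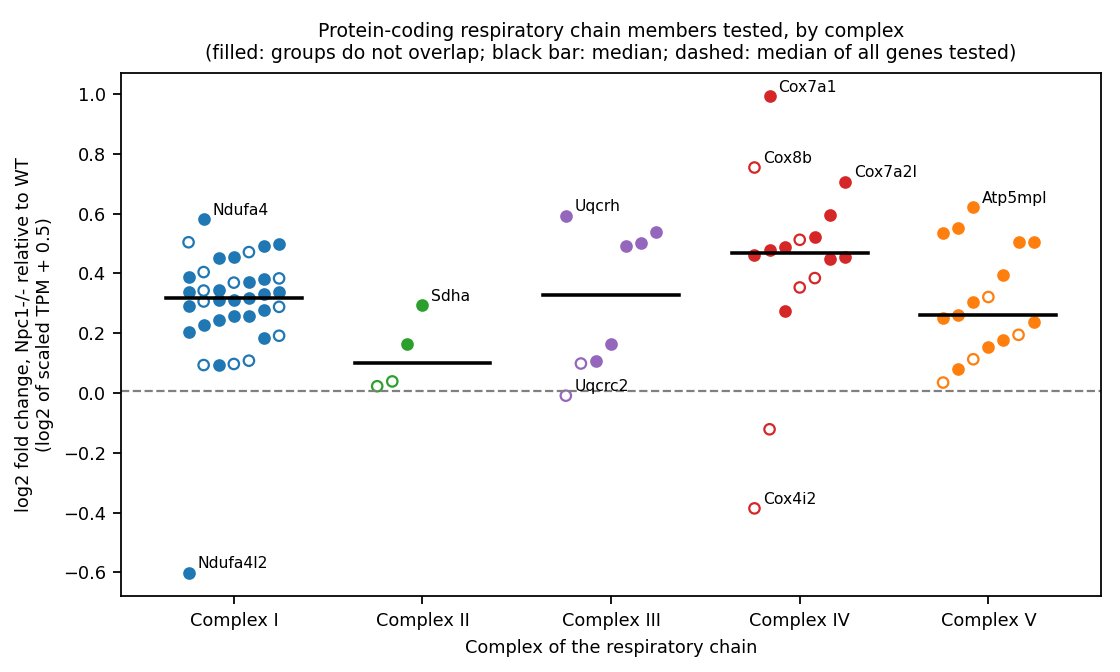
The log2 fold change (Npc1-/- relative to WT, on log2 of scaled TPM + 0.5) is plotted for each protein-coding member tested, grouped by complex. Filled points are genes whose groups do not overlap, open points genes whose groups do, black bars are the medians (0.32, 0.10, 0.33, 0.47 and 0.26 for complexes I to V, or -0.05, -0.27, -0.04, 0.10 and -0.11 in TPM without size factors), and the dashed line is the median of all genes tested.

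The direction of the group depended on how the samples were put on 1 scale. With TPM as deposited, without size factors, the median of all genes was -0.33 and that of the 84 members -0.05, so that 35 members were above 0 and 45 changed sign, while the members lay 0.28 above the median of all genes in place of 0.32. The size factors, by which the 2 scales differ, were lower on average in the mutants, with 1.30, 1.11 and 1.04 for the WT and 1.10, 0.855 and 0.727 for the Npc1-/- libraries. As a share of all TPM, the members took 2.13%, 1.97% and 2.04% in WT replicates 1, 2 and 3 and 2.27%, 2.00% and 1.89% in the Npc1-/- replicates, and these ranges overlap. With quantile normalization the median was 0.15, with 69 members above 0. Every fold change below is therefore a change relative to the typical gene, not to the total RNA.

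Summed over members, scaled TPM was 16435, 17792 and 19677 in the WT mice and 20570, 23388 and 26012 in the Npc1-/- mice. The groups did not overlap, although the highest WT sample and the lowest Npc1-/- sample were closer to each other than the mice within either genotype. WT replicate 1 was the lowest sample in 59 of the 84 members tested, and Npc1-/- replicate 3 was the highest in 45 and Npc1-/- replicate 2 in 30. The 59 and the 45 both include the pseudogene Cox6c2, in which all WT mice were tied at 0. Relative to the WT mean, the median member stood at -0.11, 0.00 and 0.09 (log2) in the WT mice and at 0.19, 0.39 and 0.43 in the Npc1-/- mice. Leaving out any single mouse kept the median of the members between 0.27 and 0.38.

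Complex I, the NADH dehydrogenase, has a catalytic core of flavin and iron-sulfur subunits surrounded by accessory subunits that are needed for assembly and stability. All 7 nuclear-encoded core subunits had small positive fold changes, with a median of 0.19 (from 0.09 to 0.26), and in 4 of the 7 the groups did not overlap. Ndufv2, an iron-sulfur subunit next to the flavin, was at 50.8, 56.6 and 57.2 scaled TPM in the WT mice and at 63.4, 68.0 and 65.5 in the Npc1-/- mice (0.26 ± 0.09, adjusted p = 0.138). Ndufs8, another iron-sulfur subunit, was at 65.8 ± 3.89 and 75.9 ± 2.63. In both genes all Npc1-/- mice were above all WT mice. Ndufs1, the largest subunit, lay within a narrow band, at 40.6, 40.4 and 42.1 in WT and 43.8, 43.6 and 44.1 in Npc1-/- mice (0.09 ± 0.07, adjusted p = 0.508). Ndufs3, Ndufs7 and the flavin-binding Ndufv1 overlapped between genotypes, with log2 fold changes of 0.09, 0.11 and 0.19.

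The 28 accessory subunits had a median log2 fold change of 0.34 (from 0.10 for Ndufc2 to 0.50 for Ndufb4), and the groups did not overlap in 19 of them. Ndufa5, of the arm that projects into the matrix, was at 107, 123 and 126 in WT and 153, 159 and 177 in Npc1-/- mice (0.45 ± 0.10, adjusted p = 0.0695). Ndufv3, the small flavoprotein subunit, was at 144, 152 and 164 and at 198, 202 and 199 (0.38 ± 0.09, adjusted p = 0.0695). Both therefore stood clear of the WT range by more than the range of either group and still missed the threshold. Ndufb9, the most abundant protein-coding complex I member, was at 286, 307 and 441 and at 380, 466 and 584, with 1 WT mouse inside the Npc1-/- range (0.47 ± 0.22, adjusted p = 0.254). The level of Ndufb4 is given below with that of a pseudogene identical to part of its transcript. Of the 37 protein-coding genes with complex I symbols, the median log2 fold change was 0.32 (or -0.05 in TPM without size factors).

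Ndufa4 and Ndufa4l2 carry complex I symbols, but NDUFA4 is now placed in complex IV, and NDUFA4L2 is a related protein known for its rise in low oxygen and its expression in pericytes. The log2 fold changes of these paralogs had opposite signs, also with TPM as deposited. Ndufa4 (chr6:11900292-11907497, minus strand, GRCm38) was at 192, 190 and 219 in WT and at 278, 303 and 319 in Npc1-/- mice, with a log2 fold change of 0.58 ± 0.10 and an adjusted p of 0.0534, the lowest of any protein-coding member. Ndufa4l2 (chr10:127514967-127517154, plus strand, overlapping Shmt2) was at 27.7, 21.2 and 24.5 and at 14.8, 14.8 and 18.2 (-0.60 ± 0.13, adjusted p = 0.0658). The groups did not overlap in either gene. Ndufa4l2 was called with TPM as deposited (-0.96, adjusted p = 0.0294) and without Npc1-/- replicate 3 (-0.70, adjusted p = 0.0466), and with genes below a mean of 5 TPM left out, both genes were (adjusted p of 0.0418 for Ndufa4 and 0.0498 for Ndufa4l2).

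The 8 markers of pericytes and other mural cells summed to between 703 and 967 scaled TPM in WT and between 371 and 525 in Npc1-/- samples. All 8 had a log2 fold change below 0, with a median of -0.84, and in 7 the groups did not overlap. Vtn was at 101 ± 24.1 and 52.9 ± 4.79, and Rgs5 at 267 ± 55.3 and 150 ± 23.7. None of the 8 was at 0 in all samples. The endothelial markers were also lower without overlap in 5 of 5 (median -0.81), and the microglia markers in 5 of 6 (median -1.08). The mural, endothelial and microglia markers thus all move with Ndufa4l2, and their part in its level was not tested.

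Complex II, succinate dehydrogenase, belongs both to the chain and to the citric acid cycle, and its 4 subunits are all nuclear-encoded. Their median log2 fold change was 0.10, the lowest of the 5 complexes. Sdha, the flavoprotein that oxidizes succinate, was at 122, 136 and 137 in WT and at 148, 151 and 187 in Npc1-/- mice, so the groups did not overlap (0.29 ± 0.12, adjusted p = 0.203). Sdhb, the iron-sulfur subunit, was at 81.6, 87.7 and 92.4 and at 95.5, 101 and 96.5 (0.16 ± 0.08, adjusted p = 0.313), again without overlap. The membrane anchors Sdhc and Sdhd overlapped between genotypes. Sdhc was at 65.7, 73.3 and 58.8 and at 62.6, 73.0 and 65.0, and Sdhd, the lowest of the 4 by level, at 42.0, 39.5 and 39.0 and at 41.6, 43.2 and 39.1, with log2 fold changes of 0.02 and 0.04. In TPM without size factors the values for Sdha, Sdhb and Sdhd were -0.08, -0.21 and -0.33, the last the same as the median of all genes on that scale.

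Complex III, the cytochrome bc1 complex, had a median log2 fold change of 0.33 over its 8 members (or -0.04 in TPM without size factors), with values from -0.01 for Uqcrc2 to 0.59 for Uqcrh. Its cytochrome c1 subunit, Cyc1, is not a member by symbol and is left out of this median (0.03 ± 0.10, with overlap). Uqcr10, a single-helix membrane subunit, was at 226, 272 and 266 in WT and at 328, 379 and 373 in Npc1-/- mice (0.50 ± 0.12, adjusted p = 0.0704). Uqcrq, a ubiquinone-binding subunit, was at 161, 179 and 199 and at 213, 269 and 278 (0.49 ± 0.14, adjusted p = 0.0980). Uqcrh, the hinge protein between the complex and cytochrome c, was at 275, 300 and 360 and at 387, 476 and 554 (0.59 ± 0.17, adjusted p = 0.0985). Uqcr11, the most abundant member of this complex, was at 568, 621 and 740 and at 786, 958 and 1060 (0.54 ± 0.16, adjusted p = 0.113). In these 4 genes, and in Uqcrb (0.16 ± 0.09), all Npc1-/- mice were above all WT mice.

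Uqcrc2, a core protein, was at 73.6, 73.5 and 73.0 in WT and at 74.4, 73.1 and 71.2 in Npc1-/- mice, a log2 fold change of -0.01 ± 0.07. Uqcrc1, the other core protein, was at 119, 116 and 116 and at 126, 129 and 124 (0.11 ± 0.08, adjusted p = 0.463), and the groups did not overlap. Uqcrfs1, the Rieske iron-sulfur protein and the lowest of the complex by level, was at 60.6, 66.4 and 64.2 and at 63.8, 72.9 and 68.2, with overlap (0.10 ± 0.09). In TPM without size factors, where all genes had a median of -0.33, the log2 fold changes of Uqcr10, Uqcrq, Uqcrh and Uqcr11 were 0.13, 0.12, 0.22 and 0.16, and those of Uqcrb, Uqcrc1, Uqcrc2 and Uqcrfs1 were -0.21, -0.26, -0.38 and -0.27. Uqcrb was also at -0.05 with a curve on transcript length removed and at -0.006 with quantile normalization.

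Complex IV, cytochrome c oxidase, had a median of 0.47 over its 16 protein-coding members tested, the highest of the 5 complexes with size factors and the only one above 0 in TPM without them (0.10). With quantile normalization it was 0.16, under the 0.17 of complex I. Its catalytic subunits are mitochondrially encoded, and the nuclear subunits around them regulate it and occur as tissue isoforms. Cox4i1, the ubiquitous regulatory subunit, was at 852, 898 and 1168 in WT and at 1094, 1391 and 1705 in Npc1-/- mice, where the highest WT mouse lay inside the Npc1-/- range (0.51 ± 0.21, adjusted p = 0.205). Cox5a was at 90.6, 95.6 and 95.3 and at 112, 121 and 107 (0.27 ± 0.08, adjusted p = 0.120). Cox5b was at 379, 371 and 484 and at 510, 583 and 678 (0.52 ± 0.16, adjusted p = 0.114). In Cox5a and Cox5b the groups did not overlap. Cox7b, an X-linked subunit (chrX:106015700-106022450, plus strand), was at 70.3, 71.5 and 73.8 and at 97.5, 98.7 and 134 (0.59 ± 0.13, adjusted p = 0.0669).

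Npc1-/- replicate 3, which had the 134 for Cox7b, was the only sample with Xist (15.6 TPM, at most 0.01 elsewhere) and without the Y-linked Ddx3y, so the sexes were not balanced between genotypes. Without that mouse the log2 fold change of Cox7b was 0.44 and the gene was called (adjusted p = 0.0466). The other X-linked members were Ndufa1, at 188, 155 and 224 and at 250, 257 and 283 (0.49 ± 0.15, adjusted p = 0.110), and Ndufb11, at 96.3, 102 and 110 and at 122, 128 and 138 (0.33 ± 0.09, adjusted p = 0.0990). In these 2 genes replicate 3 was also the highest, as it was in 45 members, and the part of sex was not tested.

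The isoforms of complex IV differed widely in level. Cox6a1, Cox6b1, Cox7a2 and Cox8a, the general isoforms, were at mean levels of 1443, 259, 156 and 1328 in WT, while the muscle isoforms Cox6a2, Cox7a1 and Cox8b were at 4.65, 2.90 and 2.52, and Cox6b2, known from testis, was at 12.8. Cox6a1 is the most abundant complex IV member, at 1255, 1438 and 1638 in WT and 1647, 1917 and 2410 in Npc1-/- mice (0.45 ± 0.19, adjusted p = 0.222). Cox8a was at 1218, 1206 and 1561 and at 1446, 1647 and 2140, with overlap (0.38 ± 0.20). Cox6b1 and Cox7a2 did not overlap (0.46 ± 0.14 and 0.49 ± 0.14, adjusted p of 0.108 and 0.102).

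Cox7a1 had the largest fold change of the protein-coding members (chr7:30184144-30186078, plus strand), at 2.35, 2.33 and 4.02 in WT and 5.08, 7.23 and 6.15 in Npc1-/- mice (0.99 ± 0.22, adjusted p = 0.0650). All Npc1-/- mice were above all WT mice, at a level far under that of Cox7a2. Cox7a2l, a related protein that helps to join complexes III and IV into supercomplexes, was at 168, 204 and 227 and at 237, 329 and 437 (0.71 ± 0.23, adjusted p = 0.132). Its groups did not overlap, and the Npc1-/- mice were spread widely (SD 100). Cox8b ranged from 1.50 to 4.44 in WT and from 3.39 to 4.65 in Npc1-/- mice, and Cox6a2 from 3.79 to 6.20 and from 4.57 to 7.86, both with overlap.

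Cox4i2 is the isoform known from lung and from oxygen-sensing and mural cells. It was at 5.50, 4.31 and 3.88 in WT and at 3.68, 4.04 and 2.49 in Npc1-/- mice (-0.39 ± 0.20, adjusted p = 0.306), with overlap. Thus Cox4i1 and Cox4i2 had fold changes of opposite sign, as did Ndufa4 and Ndufa4l2. The mural, endothelial and microglia markers given above for Ndufa4l2 move with Cox4i2 too, and their part was not tested. Cox6b2 was the remaining member of this complex below 0, at 11.0, 13.2 and 14.2 and at 10.6, 11.6 and 13.0 (-0.12 ± 0.13).

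**Figure D2:**
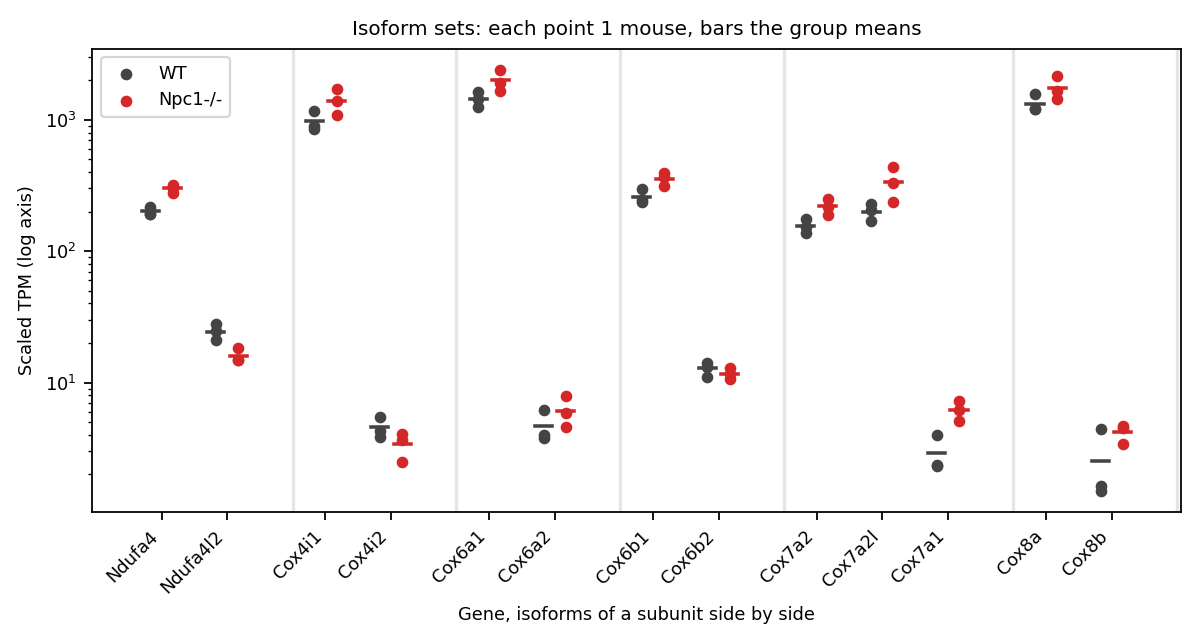
Scaled TPM (log axis) is shown for sets of paralogous subunits, with 1 point per mouse (WT grey, Npc1-/- red) and bars at the group means. The general isoforms Cox4i1, Cox6a1, Cox6b1, Cox7a2 and Cox8a lie between 139 and 2410, and their paralogs other than Cox7a2l and Ndufa4l2 at or below 14.2; Ndufa4l2, Cox4i2 and Cox6b2 are the genes with a lower mean in Npc1-/- mice.

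The called member, Cox6c2 (chr12:56373593-56373823, minus strand), is a processed copy of Cox6c. It was listed at 0 in all 3 WT mice and at 1.32, 1.19 and 1.10 TPM (1.20, 1.39 and 1.51 scaled TPM) in the Npc1-/- mice, with an adjusted p of 0.0134. With WT at 0, it passed the filter on low values only through the Npc1-/- mice, so the filter itself depended on the difference, and the call is no independent support for it. Without WT replicate 1, 2 or 3 the adjusted p was 0.0583, 0.0697 or 0.0685 and the call was lost, and without Npc1-/- replicate 1 or 2 the gene no longer passed the filter on low values. The parent gene Cox6c was at 523, 555 and 676 and at 688, 803 and 959 (0.48 ± 0.17, adjusted p = 0.151). The copy has 231 bases, fewer than the fragment length of 240 to 250 bases that the deposited values imply, and it matches bases 136 to 366 of the 503-base Cox6c transcript with 7 mismatches (97.0% identity, longest identical run 145 bases). The sequences are shown because the value of the copy rests on telling these 2 apart; capitals mark the mismatches (GENCODE transcripts, GRCm38, 5′ to 3′).
Cox6c2: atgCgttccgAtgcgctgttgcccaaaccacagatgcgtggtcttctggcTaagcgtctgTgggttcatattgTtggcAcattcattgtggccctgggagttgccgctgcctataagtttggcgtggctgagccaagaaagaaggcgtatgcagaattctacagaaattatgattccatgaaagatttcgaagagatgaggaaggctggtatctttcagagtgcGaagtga
Cox6c: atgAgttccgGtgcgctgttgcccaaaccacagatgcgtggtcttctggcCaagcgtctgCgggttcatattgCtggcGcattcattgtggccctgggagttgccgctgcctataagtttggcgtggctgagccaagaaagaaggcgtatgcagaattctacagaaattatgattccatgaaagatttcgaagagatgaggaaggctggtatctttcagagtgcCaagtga
The identical stretch covers the middle and most of the end of the copy, and how reads shared by both were divided is not given in the sources used here. The value of Cox6c2 is therefore uncertain.

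A second copy, Ndufb4c (chr15:73809507-73809896, minus strand), is the reverse case. Its 390 bases are identical to bases 95 to 484 of the 971-base Ndufb4 transcript (100% identity). The copy was at 229, 316 and 287 scaled TPM in WT and 291, 361 and 362 in Npc1-/- mice (0.29 ± 0.15, adjusted p = 0.326), while the parent Ndufb4 (chr16:37647170-37654453, minus strand) was at only 15.4, 16.0 and 22.7 and at 22.3, 26.7 and 27.4 (0.50 ± 0.16, adjusted p = 0.135). Since the copy and its parent share the whole copy, neither level can be read as that of its own locus. The other members not tested were low. Ndufa11b, Cox8c (the testis isoform) and a second Atp5o identifier were listed at 0 in all samples, Ndufs6b was at most 0.325 scaled TPM, and Cox7b2 was listed at 0 in WT and at 0.0999, 0 and 0.248 in Npc1-/- mice.

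Complex V, the ATP synthase, consists of a catalytic head, a stalk and a rotor ring in the membrane. Atp5b, the catalytic beta subunit and the most abundant member of the complex, was at 1915, 2093 and 2008 in WT and at 2131, 2045 and 2335 in Npc1-/- mice, with overlap (0.11 ± 0.14, adjusted p = 0.701). Atp5a1, the alpha subunit, was at 261 in all 3 WT mice and at 283, 267 and 277 in Npc1-/- mice (0.08 ± 0.08, adjusted p = 0.642). Atp5c1 and Atp5d, the gamma and delta subunits of the central stalk, were at 134 ± 7.59 and 157 ± 7.33 and at 180 ± 3.85 and 204 ± 8.64. In the alpha, gamma and delta subunits the groups did not overlap, and the log2 fold changes of the last 2 were 0.24 and 0.18. Atp5e, the epsilon subunit, was at 191, 231 and 223 and at 256, 339 and 323 (0.50 ± 0.14, adjusted p = 0.0957).

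The 3 members of the complex with the smallest p are small membrane subunits. Atp5k (subunit e, chr5:108433244-108434448, minus strand) was at 207, 251 and 234 in WT and 317, 348 and 334 in Npc1-/- mice (0.53 ± 0.11, adjusted p = 0.0583). Atp5mpl was at 193, 205 and 230 and at 269, 334 and 368 (0.62 ± 0.14, adjusted p = 0.0677), and Atp5j2 (subunit f) at 140, 126 and 154 and at 177, 211 and 231 (0.55 ± 0.13, adjusted p = 0.0733). All 3 were without overlap, and Atp5k was called when genes below a mean of 5 TPM were left out (adjusted p = 0.0454).

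The 3 genes Atp5g1, Atp5g2 and Atp5g3 encode the same rotor ring protein. The WT means were 89.0 ± 6.26, 142 ± 17.9 and 176 ± 3.32, set beside 110 ± 8.58, 170 ± 15.1 and 196 ± 11.5 in Npc1-/- mice (0.30, 0.26 and 0.16, adjusted p of 0.130, 0.273 and 0.349), each without overlap. The order of the 3 genes by mean level was thus the same in both genotypes. Atp5pb, of the peripheral stalk, differed least, at 117 ± 4.76 and 120 ± 4.59 (0.03 ± 0.08). Atpif1, the inhibitor of ATP synthase, is not a member by symbol and was at means of 221 in WT and 310 in Npc1-/- mice (0.49 ± 0.10, adjusted p = 0.0589), without overlap.

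Fold changes were larger for members with short transcripts. The members tested have a median transcript length of 724 bases, against 2537 bases for all genes tested, and over the 82 protein-coding members Spearman's rho between length and log2 fold change was -0.522; over all 15221 genes with a length it was -0.287. Fold changes were also larger for members with a higher WT level, with a rho of 0.417 over the 82 members and 0.0755 over all genes. Length and level were not separated. Members are not independent replicates, so these are descriptions. Members under 700 bases had a median of 0.40 (40 genes), where other genes of that length had 0.24 (1106 genes). These 40 include the processed pseudogenes Cox6c2 and Ndufb4c. From 700 to 1000 bases the medians were 0.31 (19 members) and 0.16 (975 genes), from 1000 to 2000 bases 0.18 (19 members) and 0.07 (3569 genes), and from 2000 to 4000 bases 0.29 (6 members) and -0.01 (5940 genes).

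The share of other genes in which all Npc1-/- mice were above all WT mice was 21.3%, 25.5%, 17.3% and 11.0% in these 4 classes, and of the members it was 29 of 40, 11 of 19, 10 of 19 and 6 of 6. The 29 include the pseudogene Cox6c2, which passed the filter on low values only through the Npc1-/- mice. Once a smooth curve on length was removed from each sample, the median of the members was 0.16 and that of all genes 0.02, 73 members were above 0, and 7 had changed sign.

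**Figure D3:**
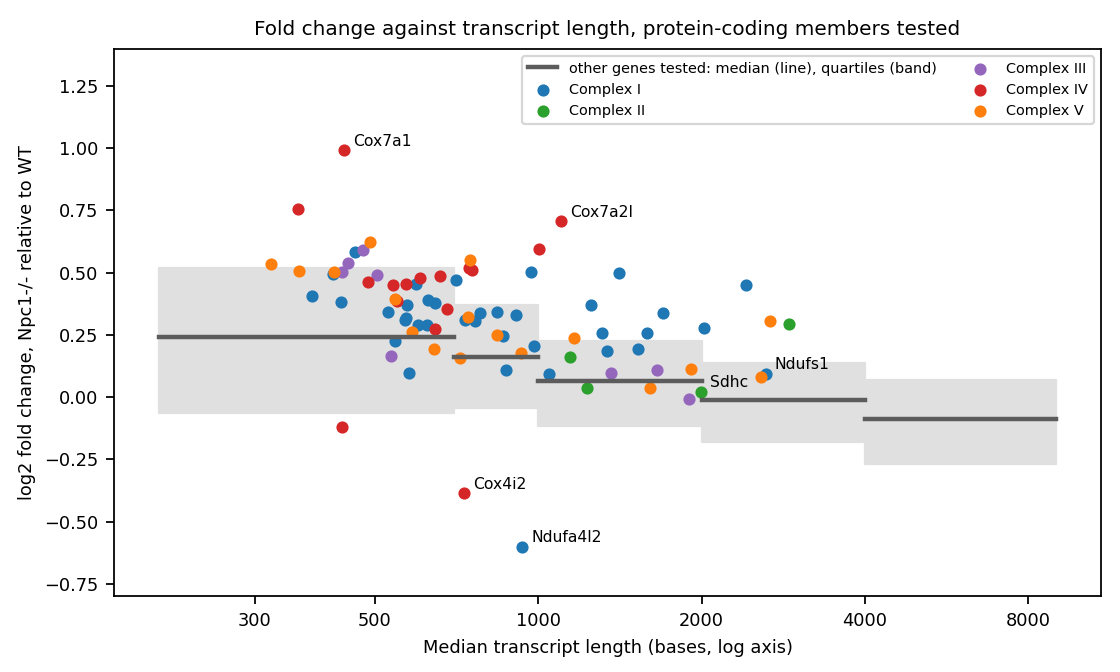
The log2 fold change (Npc1-/- relative to WT) of the protein-coding members is plotted against median transcript length (log axis), coloured by complex; grey lines and bands are the medians and quartiles of the other genes tested in 5 length classes. The grey medians go down from 0.24 to -0.09 with length, and most members lie above the grey line of their class, on the size-factor scale.

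**Figure D4:**
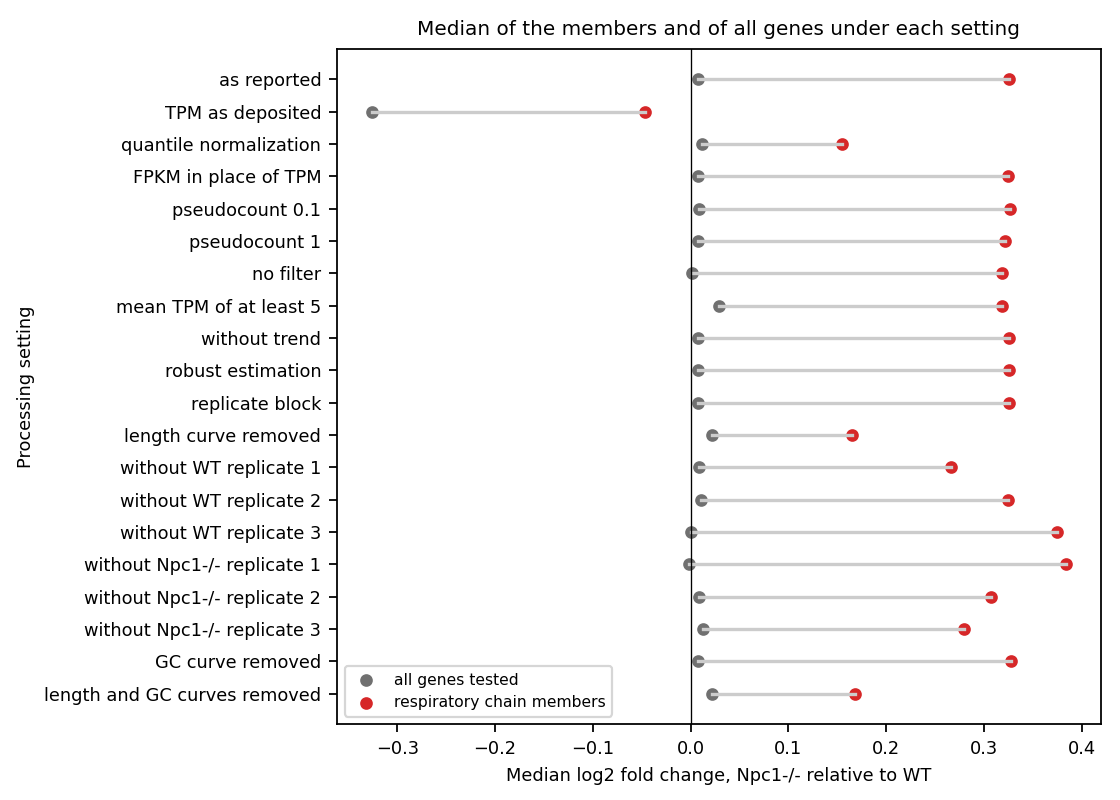
For each way of processing (rows), the median log2 fold change of the members tested (red) is joined to that of all genes tested (grey). The members tested number 84, except 86 without a filter, 80 with a mean TPM of at least 5, and 83 without Npc1-/- replicate 1 or 2. The red point is to the right of the grey point in every row, and is below 0 only for TPM as deposited (-0.05, with all genes at -0.33).

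The other genes that serve the chain were described by the same counts. The 13 mitochondrially encoded subunits had a median log2 fold change of 0.49 (from 0.39 to 0.61), but their spread between mice was wide: 11 overlapped between genotypes, 0 were called, and the smallest adjusted p was 0.263 (mt-Nd6). Their median also depended on the scale, at 0.12 in TPM without size factors and 0.00 with quantile normalization. The 52 assembly factors of the 5 complexes had a median of 0.08, with 37 above 0, 14 without overlap and higher, 1 without overlap and lower, and 0 called. The smallest adjusted p among them was that of Ndufaf1, a complex I assembly factor, at 6.16 ± 0.27 and 8.95 ± 1.15 scaled TPM (0.50 ± 0.12, adjusted p = 0.0755). By complex, the lowest adjusted p were those of Sdhaf1 (0.449), Uqcc2 (0.102), Cox14 (0.102) and Atpaf1 (0.159).

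Cytochrome c1 (Cyc1), a complex III subunit that is not a member by symbol, was at 75.9 ± 2.69 in WT and 77.5 ± 7.63 in Npc1-/- mice. Cytochrome c (Cycs) was at 30.8 ± 4.99 and 32.2 ± 2.04. Both genes overlapped between genotypes, with log2 fold changes of 0.03 and 0.07. The 14 citric acid cycle genes had a median of 0.03, with 1 gene without overlap in each direction and a smallest adjusted p of 0.236 (Idh2). Of 13 regulators of respiratory genes, 12 were tested. Their median was -0.06, all 12 overlapped between genotypes, and the smallest adjusted p was 0.308 (Gabpb2). Ppargc1a, the coactivator of mitochondrial biogenesis, was at 1.69 ± 0.26 and 1.47 ± 0.14, Nrf1 at 6.75 ± 0.46 and 6.54 ± 0.73, and Tfam, which packages mitochondrial DNA, at 14.4 ± 0.17 and 12.3 ± 1.92. The 78 mitochondrial ribosomal protein genes had a median of 0.13, with 25 higher without overlap, 1 lower, 0 called and a smallest adjusted p of 0.0624 (Mrps24). Their median transcript length is 1225 bases. The 92 genes tested with Rpl or Rps symbols, a pattern that takes cytosolic ribosomal proteins and also S6 kinases such as Rps6ka1, had a larger median than the members, 0.53 (or 0.38 with a curve on length removed), with 70 higher and 2 lower without overlap and 0 called, and the smallest adjusted p was 0.0567 (Rplp0).

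Promoters were searched for the letters bound by factors known to drive respiratory genes, on both strands, in windows from 250 bases before to 50 bases after a start (RefSeq, GRCm38.p6), which the table held for 67 of the 84 members tested. The site of nuclear respiratory factor 1 (NRF1, the letters GCGCA, any base, then GCGC) was in 17 of 67 members (25.4%). The share was 10.9% of the 11149 genes tested that had a window and 5.19% of all 27025 genes with one. CCGGAAG (GA-binding protein, GABP) was in 17 (25.4%, against 18.7% and 9.93%), and AAGATGGC (YY1) in 10 (14.9%, against 4.92% and 3.19%). TCAAGGTCA (estrogen-related receptor alpha) was in 2, Atp5g3 and Sdhd (2.99%, against 0.350% and 0.466%). At least 1 of the first 3 was in 38 members (56.7%, against 30.4% of the genes tested that had a window). The median log2 fold change of members with and without the letters was 0.26 and 0.34 for NRF1, 0.38 and 0.32 for GABP, and 0.33 and 0.33 for YY1. A match is a description of letters, not of binding.

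Stretches before the start that no annotated exon overlaps are shown for 3 members with a match in them, with the match in capitals, so that the position of the letters can be seen; each is on the minus strand and reads 5′ to 3′ toward the gene.
Cox6a1 (NRF1, chr5:115348982-115349129): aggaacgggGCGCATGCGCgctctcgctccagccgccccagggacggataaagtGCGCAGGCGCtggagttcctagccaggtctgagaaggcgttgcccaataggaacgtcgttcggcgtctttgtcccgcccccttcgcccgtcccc
Uqcr11 (GABP, chr10:80406831-80407071): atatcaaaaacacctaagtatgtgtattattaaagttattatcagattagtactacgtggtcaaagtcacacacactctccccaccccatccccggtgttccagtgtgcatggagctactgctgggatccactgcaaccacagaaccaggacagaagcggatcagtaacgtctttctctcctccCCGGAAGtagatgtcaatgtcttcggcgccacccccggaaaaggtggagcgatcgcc
Atp5g3 (estrogen-related receptor alpha, chr2:73911327-73911576): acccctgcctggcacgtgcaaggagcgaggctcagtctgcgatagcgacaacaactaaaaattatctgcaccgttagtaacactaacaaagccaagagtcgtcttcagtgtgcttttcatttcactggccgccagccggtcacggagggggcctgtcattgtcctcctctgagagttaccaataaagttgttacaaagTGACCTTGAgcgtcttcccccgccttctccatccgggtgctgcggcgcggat
Cox6a1, with 2 matches to NRF1 in this stretch, had a log2 fold change of 0.45, Uqcr11 0.54 and Atp5g3 0.16.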

How the data were processed

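RNA-seq libraries of O4-microbead-purified cells (3 WT and 3 Npc1-/- mice, 1 library each) were analysed from the tables of expression per gene. The authors deposited TPM and FPKM values for 55492 genes with no counts, so no test for counts was used. Their methods describe bbduk, STAR, featureCounts and DESeq2 on GRCm38, and the submitters' processing notes name cutadapt 2.3, STAR 2.7.8a and RSEM 1.3.3 without their roles; which of these made the TPM is not given in the sources used here, nor is the use of strand. Of the members tested, 24 overlap another tested gene. Depth was estimated from the steps between low FPKM values, and precision was taken from the spread between mice. The p-values set the genotype difference against that spread, drawn by limma toward a trend with expression level over all genes tested.

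TPM was divided by median-of-ratios size factors, and log2(value + 0.5) was fitted with limma 3.58.1 in R 4.3.3 (trend, genotype only, two-sided) for the 15245 genes whose mean TPM reached 0.5. The scripts were tested on simulated data. Positions and lengths came from GENCODE M21 (55227 of 55492 identifiers matched). The values of 1 member are not reported here. The members and gene lists were chosen with earlier results of these data known. Named with values were the members called, the 3 with the smallest p in each complex, catalytic subunits, isoform sets, and the highest, lowest and untested members. Ndufv3, Uqcrb, Ndufa1, Ndufb11, Cox6c, Ndufb4 and Atp5pb were named in addition, after their values were seen. The alternatives were TPM as deposited, quantile normalization, FPKM, other pseudocounts and filters, other variance estimates, a replicate block, a length curve (span 0.3) and each sample left out; curves on GC content were added after seeing the data.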

Additional observations from a re-analysis of the deposited data

How the results depend on the processing

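Over the members tested (84 as reported, from 80 to 86 under the alternatives), the median log2 fold change was above that of all genes under every alternative run. Its own sign turned with TPM as deposited (-0.046, with all genes at -0.33). Sdha, Sdhb and Sdhd also turned there (-0.079, -0.21 and -0.33), and Sdhd turned with quantile normalization (-0.016), with the length curve removed (-0.034) and with length and GC curves removed (-0.029). The cause was not tested. All genes called numbered 124 as reported, 924 with TPM as deposited, 225 with quantile normalization, 21 without a filter (28469 genes tested), 447 with a mean TPM of at least 5 (9150 genes tested), 42 without the variance trend and 2011 with a replicate block, and from 4 to 486 with 1 mouse left out, the highest without Npc1-/- replicate 3. Members called higher numbered 2 with a mean TPM of at least 5 and from 0 to 2 with 1 mouse left out; members called lower numbered 1 with TPM as deposited (Ndufa4l2, -0.96), 1 with a mean TPM of at least 5, and from 0 to 1 with 1 mouse left out. The median with 1 mouse left out ran from 0.27 to 0.38. FPKM in place of TPM, both other pseudocounts, robust estimation and the GC curve changed none of these calls of members. The labels give both genotypes replicate numbers 1 to 3 and do not say whether these numbers pair the samples. The correlations of same-numbered deviations were 0.41, 0.06 and 0.33, and every sample correlated best with its own number. The fit as reported uses genotype only, and a pairing was neither assumed nor excluded. With the replicate block 50 members were called higher and 1 lower, and 49 of the members called in either direction were protein-coding. Without counts the number of fragments behind a value is unknown for most genes, so no counting interval is given, and with 3 mice per genotype small differences such as those of Sdhc, Sdhd and Uqcrc2 were not detectable.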
